A study of Mus musculus with 3 samples.

Results

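The SLAM family receptors were followed across a set of 3 mouse expression arrays as 10 genes: Slamf1, Slamf6, Slamf7, Slamf8, Slamf9, Cd48, Cd244, Ly9, Cd84 and the adaptor gene Sh2d1a. All probes that carry one of these gene names were taken, which gave 17 probes of 41174 on the array and 10 genes of 27729. Probes were taken by gene name and not by a measured value, but the members were chosen with earlier results of these data known. Each array carried RNA of untreated cells in Cy3 and RNA of cells given 800 µM pAsc, the phosphorylated ascorbate used as vitamin C, in Cy5. The first array held OP9-DL1 stromal cells kept in MEM, with pAsc for 24 h or without it. This line is a continuous culture of strain B6-C3Hf1 that presents the Notch ligand Dll1. The labels call its cell type osteoblast, and no list of genes made for that cell type was examined. The other arrays held T lineage cells grown from C57BL/6 bone marrow progenitors on OP9-DL1 with Flt3L and IL7. They were collected on day 14, with pAsc for the final 24 h or without it, and on day 17, with pAsc for the final 72 h or without it. All T cell groups shared the stromal line and both cytokines, and stromal cells were removed by adherence before RNA was taken. The time of exposure and the day of culture changed together, so they cannot be told apart.

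SLAM receptors are immunoglobulin-type surface proteins of blood cells. Most of them bind the same receptor on a neighbouring cell, while Cd244 binds Cd48. The cytoplasmic tails of Slamf1, Slamf6, Ly9, Cd84 and Cd244 carry tyrosine motifs that bind the small adaptor SAP, encoded by Sh2d1a, which brings the kinase Fyn to the receptor. In the thymus, contacts between immature T cells through Slamf1 and Slamf6 together with SAP are required for natural killer T cells and other innate-like T cells. Slamf8 and Slamf9 have short tails without these motifs.

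There was 1 array per comparison, with no replicate array and no dye swap. No p-value is therefore given, and a dye effect particular to a probe cannot be told apart from treatment. The log2 ratio is treated over untreated within an array. Genes were compared with a rule of size, at least 2-fold apart and well above background in both channels. As measures of error, repeat spots of a probe had a log2 SD of 0.0677, 0.0696 and 0.0658 on the stromal, day 14 and day 17 arrays. Different probes of a gene had an SD of 0.178, 0.143 and 0.178 around their gene. Each member probe was spotted 1 time, and its error in the deposited files, which includes a modelled part, was between 0.204 and 0.441 in T cells where it was measured.

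Only some of the probe sequences are shown, those on which the member-by-member account turns. Each is written 5′ to 3′ as the files give it and lies across an exon junction, since its genomic span on mm9 is longer than its 60 bases. The probe of Slamf6 is the one with the largest member ratio in T cells at 72 h. It covers chr1:173866817-173868145, a span of 1329 bases, and starts at base 815 of its transcript.

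Slamf6: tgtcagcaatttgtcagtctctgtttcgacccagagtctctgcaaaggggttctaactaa

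The probe of Cd244 covers chr1:173507474-173508000, a span of 527 bases, and starts at base 893 of its transcript. Capitals mark the bases that encode a tyrosine switch motif, the kind of site that SAP binds, in the only reading frame without a stop codon.

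Cd244: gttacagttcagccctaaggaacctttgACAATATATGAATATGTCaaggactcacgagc

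The probe of Slamf1 covers chr1:173718133-173722451, a span of 4319 bases, and starts at base 872 of its transcript. It is shown because it was not well above background in any of the 6 channels, unlike the downstream probe of this gene.

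Slamf1: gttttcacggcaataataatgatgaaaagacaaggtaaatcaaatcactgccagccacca

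In T cells treated for 72 h, Slamf6 was the only member that reached 2-fold, and none reached it at 24 h. With a gene taken at its brightest probe, 10 members were measured at 24 h, and 0 passed the rule upward and 0 downward. Among all 16980 genes measured there, 0.312% were higher and 0.0118% lower. At 72 h, 9 members were measured, and 1 was higher and 0 were lower, beside 0.221% and 0.381% of 16288 genes. The median ratio of the members was -0.06 at 24 h and -0.10 at 72 h, with all measured genes at 0.02 and 0.01. The 4 members above 0 at each time became 7 and 8 with median centring on all probes (all-probe centring), a scaling that moved the median of all genes to 0.41 and 0.54. In the stroma 0 members were measured by their brightest probe, so none could be called beside 0.432% of 14346 genes higher and 0.118% lower.

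Counts over all genes depended on the scaling. At 24 h 53 genes were higher and 2 lower, against 749 and 2 with all-probe centring, 147 and 32 with the deposited log ratio and 160 and 30 with plain background subtraction. At 72 h 36 were higher and 62 lower, against 1554 and 12 with all-probe centring, 141 and 81 with centring on measured probes and 116 and 132 with plain subtraction. On the stromal array the split was 62 and 17, against 2829 and 2, 297 and 18, and 155 and 88 in the same order, and 136 and 110 with the deposited log ratio. The count of members past 2-fold within an array was the same in each of these settings. With 10 members measured at 24 h and 9 at 72 h, this count had little room to move. The member ratios themselves did move: of 31 probe ratios, 14 had the other sign with all-probe centring and 14 with centring on measured probes.

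Slamf6, a self-binding receptor of thymocytes and mature T cells, had background-subtracted signals at its junction probe of 114 in untreated and 375 in treated T cells on day 14. On day 17 they were 235 and 1710. These signals are not corrected for the brighter Cy5 channel. After normalization the log2 levels were 7.73 and 8.02 on day 14, and 8.53 and 9.90 on day 17. Treated cells of day 17 thus held the highest Slamf6 level of the 6 channels, and both stromal channels, at 6.05 and 6.10, were not well above background. The log2 ratio was 0.29 at 24 h, or 1.23-fold, and 1.38 at 72 h, or 2.60-fold higher with pAsc. The error in the deposited files was 0.21 and 0.25, so the ratio at 72 h exceeded it several times over. At 72 h this gene ranked 8 of 16288 from the highest ratio.

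The downstream probe of Slamf6, at chr1:173873620-173873679 and from base 2063 of the transcript, had normalized log2 levels of 6.88 and 7.03 on day 14 and of 7.45 and 8.23 on day 17. In the stroma it read 6.83 and 6.86, well above background in both channels, a level close to that of day 14 T cells. Its log2 ratios were 0.03 in the stroma, 0.15 at 24 h and 0.78 at 72 h, the last being 1.71-fold with an error of 0.23. The probes of Slamf6 therefore had the same sign at 72 h but not the same size, and this one stayed under 2-fold. It reached a log2 ratio of 1.01 with plain background subtraction and 1.15 with median centring on all probes. Over 6 ways of processing, the ratio at 72 h lay between 1.38 and 1.95 at the junction probe and between 0.67 and 1.15 at the downstream probe. In the stroma the downstream probe lay between -0.52 and 0.44, and both ends passed its error of 0.33. At 24 h it lay between -0.16 and 0.24. The sign of this probe in the stroma and at 24 h thus depends on the processing.

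**Figure D1:**
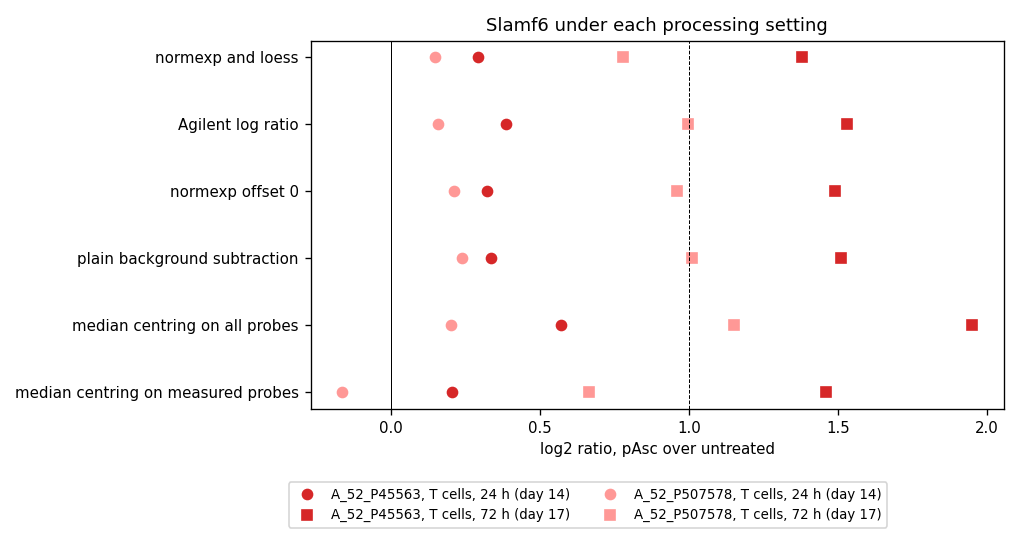
Log2 ratio of pAsc over untreated for both Slamf6 probes (x axis) under 6 processing settings (y axis), with circles for T cells at 24 h, squares for 72 h and a dashed line at 2-fold. The junction probe A_52_P45563 lies right of the line at 72 h in all 6 settings, between 1.38 and 1.95, while the downstream probe A_52_P507578 lies on both sides of it, between 0.67 and 1.15.

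The ratio of Slamf6 was larger at 72 h than at 24 h by 1.08 at the junction probe and by 0.63 at the downstream probe. Of 9 members measured at both times, 1 was higher by at least 1 on the log2 scale and 0 were lower, beside 0.190% and 0.362% of 15756 genes. The median of that difference over the members was 0.01, against -0.03 over all genes. With no replicate array the difference has no test.

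**Figure D2:**
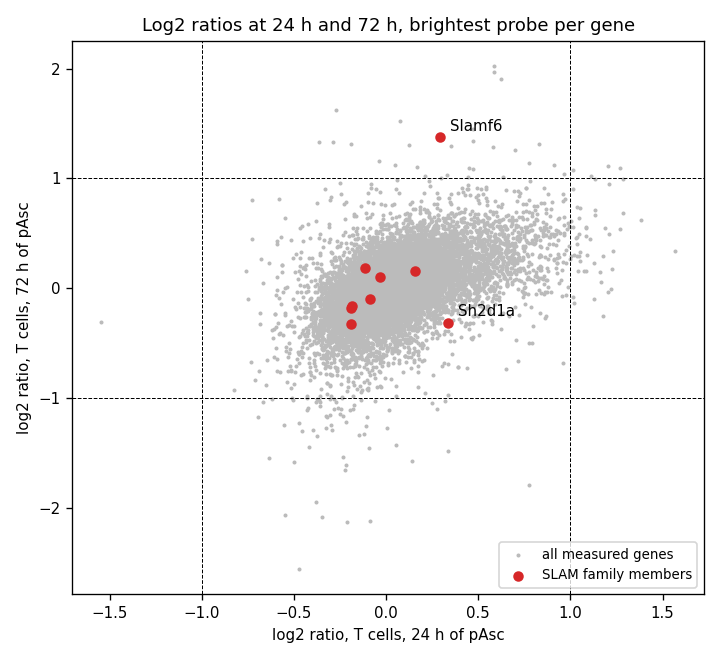
Log2 ratio of pAsc over untreated in T cells at 24 h (x axis) against 72 h (y axis), with each member at its brightest probe drawn over all genes measured on both arrays. Slamf6 stands apart at 0.29 and 1.38, and Sh2d1a lies at 0.34 and -0.31.

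Slamf1, the self-binding receptor also known as CD150, was measured in T cells by its downstream probe only. Its normalized log2 levels were 6.59 and 6.75 on day 14 and 6.80 and 6.95 on day 17, in untreated and treated cells. The log2 ratios, 0.15 and 0.16, were within the error of 0.24 and 0.23 in the deposited files. The deposited log ratios were -0.02 and 0.22, also within it. With centring on measured probes both ratios were -0.28, beyond that error, so the sign depends on the scaling. The junction probe printed above read between 5.99 and 6.19 over the 6 channels and gave no ratio.

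Cd84 and Ly9, both self-binding receptors of lymphocytes, were well above background in T cells at both times. Cd84 read 10.10 and 9.91 on day 14 and 10.37 and 10.18 on day 17, in untreated and treated cells. Ly9 read 9.92 and 9.73 on day 14 and 9.89 and 9.73 on day 17. Their log2 ratios were -0.19 and -0.18 for Cd84 and -0.19 and -0.16 for Ly9. All 4 ratios were within the error of the deposited files, 0.20 to 0.21. In the deposited log ratio itself they were -0.25 and -0.18 for Cd84 and -0.29 and -0.20 for Ly9, so the values at 24 h passed the error there. All-probe centring turned the sign, with 0.27 and 0.47 for Cd84 and 0.27 and 0.46 for Ly9, all beyond the error. The sign of both genes thus depends on the scaling. All 4 values still lay below the medians of all genes in that scaling, 0.41 and 0.54. In the stroma Cd84 was not well above background, and Ly9 was so only in treated cells, with a bound of 1.13-fold higher. That log2 ratio of Ly9, 0.17, was smaller than its error of 0.60, while the deposited log ratio of 0.85 passed it.

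Slamf7, a self-binding receptor of natural killer, B and plasma cells, had ratios of opposite sign at its probes. The brighter probe had log2 ratios of -0.12 at 24 h and 0.18 at 72 h, and the other 0.15 and -0.003. Its normalized levels ranged from 6.73 to 6.95 at the brighter probe and from 6.58 to 6.73 at the other. These differences were all smaller than the error of 0.22 to 0.28 in the deposited files. The deposited log ratio gave 0.83 for the brighter probe at 72 h and 0.42 for the other at 24 h, both beyond that error, so the values of Slamf7 depend on the processing.

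Cd244, the receptor of Cd48 on natural killer and cytotoxic T cells, was lower with pAsc at its brightest probe, from 10.30 to 10.11 on day 14 and from 10.08 to 9.76 on day 17. The log2 ratios were -0.19 and -0.32, the second being 1.25-fold lower, with errors of 0.21 in both cases. The junction probe printed above read 7.77 and 7.49 on day 14 and 7.59 and 7.35 on day 17, which gave -0.28 and -0.25. Both probes thus had the same sign at both times, and none of these values reached 2-fold. Under all-probe centring the brightest probe read 0.28 and 0.30 and the junction probe -0.05 and 0.03, so the probes differed in sign at 24 h, and all 4 values lay below the median of all genes in that scaling. A further probe was near background, with 0.05 at 24 h. At 72 h it was well above background only in treated cells, with a bound of 1.07-fold higher. That log2 ratio, 0.10, was smaller than its error of 0.40, while the deposited log ratio of 1.07 passed it.

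Cd48, the ligand of Cd244 and Cd2 held to the membrane by a lipid anchor, was measured by a pair of bright probes that gave nearly the same ratios. Its brightest probe read 13.24 and 13.15 on day 14 and 12.85 and 12.76 on day 17, in untreated and treated cells. The other read 11.50 and 11.47 on day 14 and 11.10 and 11.14 on day 17. The log2 ratios lay between -0.10 and 0.03 and were within the error of 0.20. Under all-probe centring they were 0.55 and 0.71 at the brightest probe and 0.50 and 0.73 at the other, and with centring on measured probes between 0.13 and 0.24, so sign and size depend on the scaling. Neither probe was well above background in the stroma.

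Slamf8 and Slamf9, the members with short tails, were close to background in T cells. Slamf8 read between 6.30 and 6.42 over the 4 T cell channels, with log2 ratios of -0.03 and 0.10 and errors of 0.38 and 0.44 (-0.44 and -0.23 in the deposited log ratio). Slamf9 read 6.54 and 6.55 on day 14, and 6.49 in untreated cells on day 17. In treated cells of day 17 Slamf9 was not well above background, and its bound there was 1.37-fold lower. In treated stroma the bound of Slamf9 was likewise 1.20-fold lower. These log2 ratios, -0.46 and -0.26, were smaller than their errors of 0.57 and 0.48. The deposited log ratios, -2.62 and -1.35, passed those errors. At such signals the size depends on the background correction, and the log2 ratio at 72 h was -0.46, -1.32 and -2.62 with an offset of 50, with an offset of 0 and in the deposited log ratio.

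Sh2d1a, the gene of the adaptor SAP, differed in sign between the T cell arrays at its bright probe, at chrX:39874920-39874979. It read 12.01 and 12.34 on day 14 and 11.59 and 11.28 on day 17, in untreated and treated cells. The log2 ratio was 0.34 at 24 h and -0.31 at 72 h, with an error of 0.21 for each, and neither reached 2-fold. The dim probe at chrX:39876176-39876235, designed on another transcript sequence, had 0.06 and 0.13, both within its error of 0.24. The bright probe, with all-probe centring, read 0.90 and 0.40, both above 0, so the sign at 72 h depends on the scaling while the order of the times does not. The value of 0.40 at 72 h lay below the median of all genes in that scaling, 0.54.

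**Figure D3:**
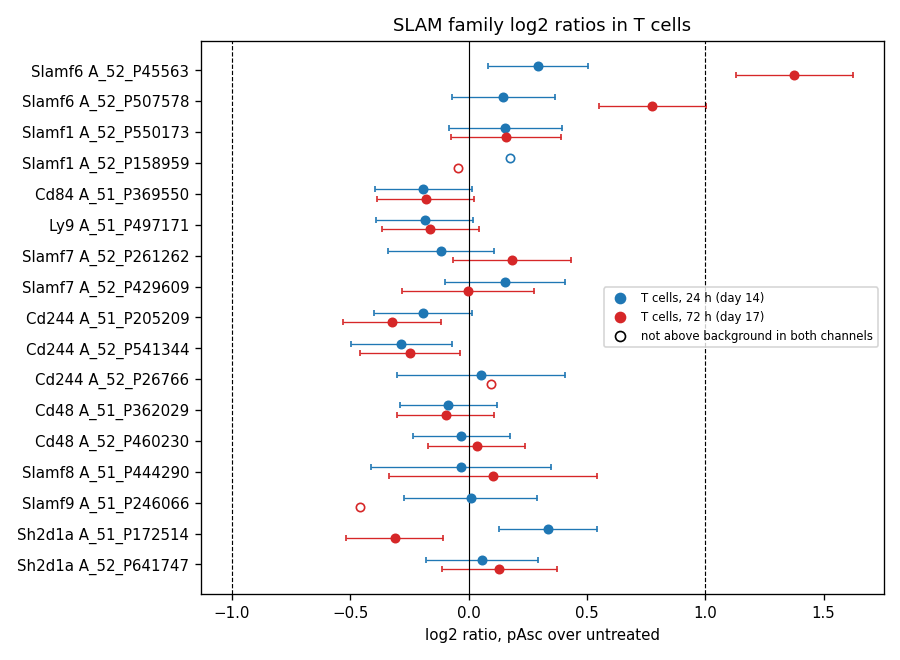
Log2 ratio of pAsc over untreated (x axis) for each member probe on the T cell arrays of 24 h and 72 h, with bars for the error in the deposited files, open circles for probes not well above background in both channels and dashed lines at 2-fold. Only the Slamf6 junction probe at 72 h, at 1.38, lies past 2-fold. The measured probes of the other genes lie between -0.28 and 0.34 at 24 h and between -0.32 and 0.18 at 72 h.

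Of 16 member probes measured at 24 h, 3 had a normexp and loess ratio larger than their own error in the deposited files. At 72 h these were 5 of 14. The remaining probes differed by less than that error in the normexp and loess values. The error belongs to the deposited log ratio, by which more probes passed it at each time. At 24 h these included dim ones, such as Slamf8 at -0.44 with an error of 0.38 and Slamf9 at 0.34 with an error of 0.28. With 1 array it is not known how far separate cultures differ.

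Between day 14 and day 17 without pAsc, Slamf6 was higher on day 17 by 0.80 at the junction probe, or 1.74-fold, and by 0.57 at the downstream probe. Here levels come from different arrays after scaling of the arrays' average brightness, and no member reached 2-fold. Of 10 members 0 were higher and 0 lower, beside 7.72% and 3.67% of 15862 genes. Cd48 was lower by 0.38 and 0.40 at its probes and Sh2d1a by 0.41 at its bright probe, while Cd84 was higher by 0.27. Ly9, Slamf8 and Slamf9 differed by less than 0.05 in either direction.

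In treated cells the same comparison gave 1 member higher and 1 lower of 9, beside 6.86% and 5.38% of 16892 genes. Slamf6 was higher on day 17 by 1.88, or 3.69-fold, and by 1.20 at its other probe, or 2.29-fold. Sh2d1a was lower by 1.06 at its bright probe, or 2.09-fold, and 0.02 apart at its dim probe. Its call was lost with median scaling of the channels. The day comparisons of treated and of untreated cells hold the same signals as the ratios, so they are no separate evidence for them. Cd48 was lower by 0.40 and 0.33, Cd244 lower by 0.35 at its brightest probe, and Cd84 higher by 0.28.

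**Figure D4:**
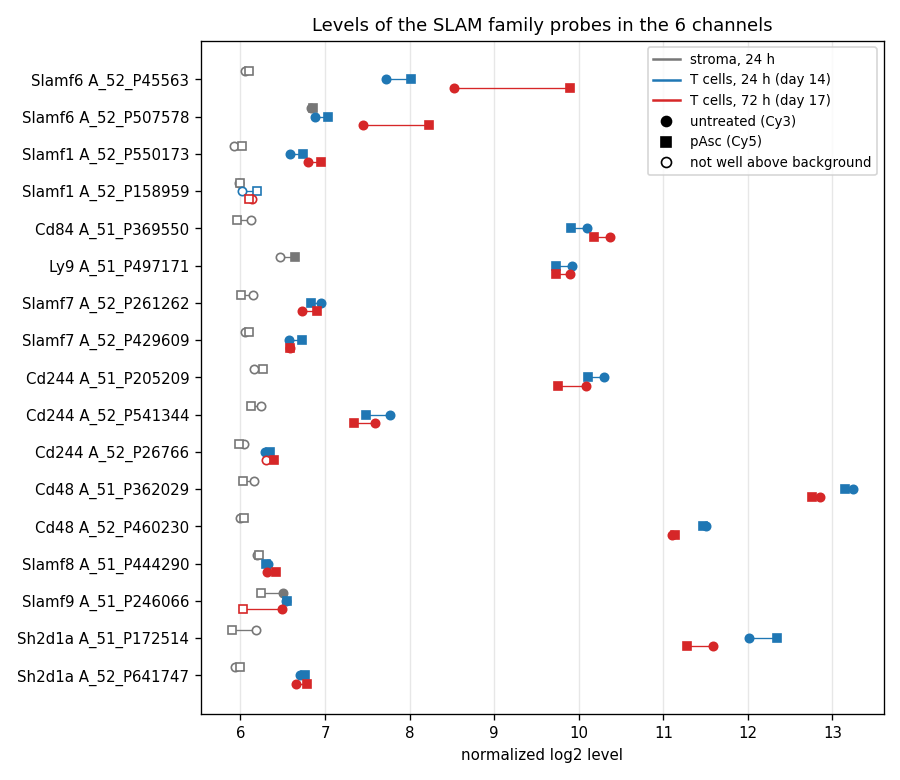
Normalized log2 level (x axis) of each of the 17 member probes (y axis) in the 6 channels, with circles for untreated cells in Cy3, squares for pAsc in Cy5 and open symbols for signals not well above background. Levels can be read within a row only, since probes differ in brightness. In the row of the Slamf6 junction probe the square of day 17 stands alone at 9.90.

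The members were also compared between T cells and stroma. Relative to untreated stroma, Cd48 was at least 131-fold higher in untreated T cells of day 14 and at least 100-fold higher on day 17, and Sh2d1a at least 55.8-fold and 41.9-fold. The bounds were 17.1-fold and 14.7-fold for Cd244, 14.9-fold and 17.9-fold for Cd84, 10.9-fold and 10.7-fold for Ly9, and 2.87-fold and 5.0-fold for Slamf6 at its junction probe. The downstream probe of Slamf6, well above background in stroma too, was only 1.04-fold higher on day 14 and 1.54-fold on day 17. By their brightest probes these 6 of 10 members were past 2-fold on each day, beside 17.9% of 17628 genes on day 14 and 12.8% of 16835 on day 17. The count was 5 on day 14 with the median over a gene's probes, and 7 and 8 with an offset of 0. Slamf1 and Slamf7 had bounds between 1.31-fold and 1.68-fold. Slamf8 had bounds of 1.09-fold and 1.08-fold, and Slamf9 was well above background in both and differed by 0.04 at most.

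T cell and stromal markers were read in the same channels. All 10 T cell markers were measured on both T cell arrays, 0 were past 2-fold, and 8 of them were not well above background in the stroma. Their summed normalized level went from 138500 to 148500 with pAsc on day 14 and from 125200 to 99040 on day 17. The direction on day 17 depends on the scaling. The median log2 ratio of these markers was -0.19 there, but 0.67 under all-probe centring and 0.18 with centring on measured probes. All genes had medians of 0.54 and 0.06 in those scalings. All 16 stromal markers were measured in T cell RNA, with a median log2 ratio of 0.80 at 24 h and 0.64 at 72 h. Their sum went from 134100 to 243100 and from 358700 to 552500, against 633300 and 772400 in the stroma itself. At least 2-fold higher were 4 of the 16 at 24 h and 2 at 72 h. These counts were 14 and 13 under all-probe centring, and 2 and 1 with the deposited log ratio. Fbn1, a microfibril protein, had log2 ratios of 1.27 and 1.096, against 0.26 in the stroma, and Col1a2, a collagen chain, 1.20 and 1.11, against 1.12 in the stroma. Postn and Col3a1 were past 2-fold at 24 h only, at 1.14 and 1.015, against -0.74 and 0.30 in the stroma. Col1a2 was the only one of the 16 past 2-fold in the stroma. That count of 1 became 0 with the deposited log ratio, 6 with centring on measured probes and 11 with all-probe centring. Most stromal markers were thus above 0 with pAsc in the T cell samples, 16 of the 16 at 24 h and 14 at 72 h. Vcam1 and Col6a1 were below 0 at 72 h, at -0.19 and -0.04. On the stromal array Slamf6 was not well above background at its junction probe, with or without pAsc, but was at its downstream probe. That array held OP9-DL1 kept in MEM, and stroma of the T cell cultures was not measured by itself. The part of stromal RNA in the ratios of either Slamf6 probe was not tested. In mixed RNA, fewer cells of a type and less RNA per cell cannot be told apart.

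Natural killer cells carry Cd244, Ly9 and Sh2d1a too. Of 10 natural killer markers 9 were measured, with a median log2 ratio of -0.28 at 24 h and -0.33 at 72 h, and 0 and 3 above 0. Their summed level went from 114800 to 100700 and from 78430 to 61180. Gzma, a granzyme, and Klrb1c, the NK1.1 antigen, were at least 2-fold lower at 72 h, with -1.61 and -1.03, while Gzmb read 0.66. The summed level is weighted to the brightest probes of the list, those of Gzma and Gzmb. On day 17 Gzma went from 15.19 to 13.58 and Gzmb from 14.41 to 15.07 in log2 level. Eomes, a factor of mature natural killer cells, was not well above background. Under all-probe centring both calls at 72 h were lost, with 0 lower and 1 higher, and the medians were 0.10 and 0.07, below the 0.41 and 0.54 of all genes. At 24 h 0 were past 2-fold, but 2 were lower with the deposited log ratio and with plain subtraction, and 1 with an offset of 0. The part of these cells in the Cd244 and Sh2d1a values was not tested.

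Genes that act below the receptors were read from a list of 13, of which 12 were on the array. All 12 were measured at both times, 0 were past 2-fold, and 6 were above 0 at each time. Their median was -0.02 at both times, against 0.02 and 0.01 for all genes. Fyn, the kinase that SAP recruits, had log2 ratios of -0.04 and -0.06, and Sh2d1b1, a related adaptor, had -0.16 and -0.23. At 72 h the list ran from -0.38 for Vav1, an exchange factor phosphorylated downstream of Fyn, to 0.44 for Nfkb1, a subunit of NF-kappaB. Under all-probe centring 2 of the 12 were past 2-fold at 72 h.

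Cd2, the other receptor of Cd48, had a ratio of -0.02 at 24 h and 0.66 at 72 h. Of the 4 genes listed for Cd2 and its cytoplasmic partners, 0 were past 2-fold at either time, and 1 was higher at 72 h under all-probe centring. The medians of this small list were -0.05 and 0.05.

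A list of genes linked to innate-like T cells, the cells that require SLAM signals in the thymus, was also read. Klrb1c, Tbx21 and Eomes are on the natural killer list too, so the Klrb1c value below is the one given above. Of 10 listed, 9 were on the array and 8 were measured, with medians of -0.30 at 24 h and -0.16 at 72 h. At 24 h 0 were past 2-fold and at 72 h 0 were higher and 1 was lower, Klrb1c at -1.03. Il4, a cytokine of natural killer T cells, had -0.59 and -0.01, and Egr2, a factor needed for these cells, -0.04 and 0.32. Cd1d1, which presents lipid to natural killer T cells, had -0.20 and -0.44. Under all-probe centring the Klrb1c call was lost and the list had 2 higher and 0 lower at 72 h, with medians of 0.12 and 0.42 that lay below all genes. At 24 h 1 gene was lower with the deposited log ratio, with an offset of 0 and with plain subtraction.

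The receptor genes lie close together on chromosome 1, in the order Cd244, Ly9, Slamf7, Cd48, Slamf1, Cd84 and Slamf6, with Slamf9 and Slamf8 further along. Sh2d1a is on chromosome X. Among 36 neighbouring genes on the array, up to 10 on each side and those in between, 24 were measured at 24 h and 20 at 72 h, and 0 were past 2-fold at either time. Their medians were 0.004 and -0.04. Cd84 and Vangl2, the genes beside Slamf6, had -0.18 and -0.20 at 72 h, and the highest neighbour was Pea15a at 0.40. In this interval Slamf6 alone passed the rule at 72 h, while under all-probe centring 2 neighbours passed it too.

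**Figure D5:**
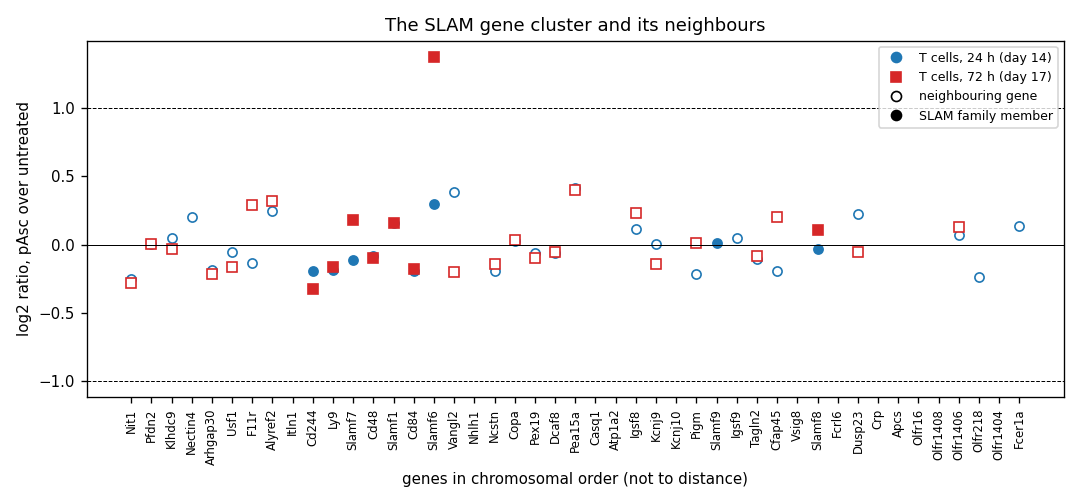
Log2 ratio of pAsc over untreated (y axis) for the receptor genes and their neighbours in chromosomal order (x axis, rank of the gene and not distance) for the T cell arrays of 24 h and 72 h, dashed lines marking 2-fold. Slamf6 at 72 h, at 1.38, is the only point past a line, and neighbours at 72 h lie between -0.28 and 0.40; under all-probe centring 2 neighbours passed 2-fold as well.

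Some other genes had levels much like those of Slamf6 over the 6 channels, each centred on its own mean. The likeness was the root mean square difference of log2 levels, computed over 19067 genes. The nearest were Acsbg1 at 0.227, Hs3st1 at 0.285, Krt87 at 0.287, Tlr1 at 0.294 and Trbv1 at 0.297. Acsbg1 encodes an acyl-CoA synthetase, Hs3st1 a heparan sulfate sulfotransferase, Tlr1 a Toll-like receptor and Trbv1 a T cell receptor segment. Their ratios at 72 h, in that order, were 1.31, 0.91, 0.80, 0.76 and 0.49, and at 24 h -0.19, -0.08, 0.19, -0.23 and -0.18. Acsbg1 is the only one of these 5 that was past 2-fold at 72 h. The 6 channels share 3 arrays, so this is a description of these libraries.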

How the data were processed

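Probes were read from 3 Agilent two-colour arrays, 1 per comparison. The deposited spot intensity values (mean signal and median local background) came from the authors' scans; per the file headers the software was Agilent Feature Extraction 10.5.1.1. The deposited log10 ratio of Cy5 over Cy3 was background-subtracted and dye-normalized per the file headers, was turned to log2 here, and served as an alternative, and its error as the error of a ratio. With limma 3.58.1 in R 4.3.3, signals were corrected by normexp (offset 50) and loess (span 0.3), with control and outlier-flagged spots at weight 0; 117 to 130 spots per array were flagged and 0 saturated. Spots of a probe were averaged, and the brightest probe stood for a gene. A probe was measured where a share of at least 0.5 of its spots was well above background. Channels of different arrays were scaled with Aquantile. A probe dim in 1 channel gave a bound, open to dye bias. The dim side stood at the higher of its own level and the lowest level well above background. Positions are mm9. Names came from RefSeq accessions for 25081 probes, from symbols for 6332, synonyms for 1640 and the file for 8104; the reference table names Cd244 as Cd244a. Steps were tested on simulated data. Tables used Python 3.11.15 with pandas 2.3.3 and numpy 2.4.6. Members, lists and the rule for named genes (all members, the list genes given as examples, and the genes with the 5 smallest distances to Slamf6) were chosen with earlier results of these data known.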

Additional observations from a re-analysis of the deposited data

Results flagged for a closer look

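The bright probe of Sh2d1a had ratios of opposite sign on the T cell arrays, 0.34 at 24 h and -0.31 at 72 h, a log2 difference of -0.648. The difference was not tested, since each time has 1 array. The dim Sh2d1a probe, on another transcript sequence, had 0.06 and 0.13.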

How the results depend on the processing

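Single probes moved with the scaling: of 31 probe ratios, 14 had the other sign with median centring on all probes and 14 with centring on measured probes, against 4 with the deposited log ratio, 1 with plain subtraction and 0 with an offset of 0. Of members with a ratio higher at 72 h than at 24 h by at least 1, there was 1, which became 2 with the deposited log ratio, where Slamf7 joined Slamf6, and 0 with the median over a gene's probes. With the 1.5-fold rule the members lower by that difference went from 0 to 1, and those higher on day 17 in untreated cells from 0 to 1. The member lower on day 17 in treated cells, Sh2d1a, was 0 with median scaling of the channels and 0 with the median over probes. Under median centring on all probes the members' medians were 0.267 at 24 h and 0.399 at 72 h, where all genes moved to 0.411 and 0.543, so both changed sign and the members lay below all genes there too. Leaving out genes brighter in stroma, an alternative chosen after seeing the data, removed no member and so tested nothing about them. No paired analysis was possible because each comparison has 1 array. The number of arrays limits all values, and Slamf8, Slamf9 and the dim probes of Slamf1, Cd244 and Sh2d1a are limited by signal over background.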

Other observations

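Other blood lineages were read in the same T cell RNA, where 0.381% of all measured genes were at least 2-fold lower at 72 h. Of 10 myeloid markers 8 were measured at each time, and at 72 h 0 were higher and 2 lower past 2-fold, Ctsg at -2.07 and Lyz2 at -1.27. Above 0 were 4 of these 8 at 72 h, and their median was 0.03. Of 6 mast cell markers 3 were measured at 72 h, and Cpa3, a mast cell protease, was lower at -2.13. Gata2 was the 1 mast cell marker above 0, at 0.65, and the median was -0.14. Of 10 progenitor markers 9 were measured, and Lyl1 and Cd34 were lower at 72 h, at -2.55 and -1.79. Most of that list did not fall, with 5 of the 9 above 0 at 72 h and a median of 0.13. At 72 h 3 of the 7 measured B cell markers were also at least 2-fold lower, and 0 of 4 dendritic cell markers were past 2-fold at either time. Under median centring on all probes at 72 h, 0 B cell markers were lower, the myeloid markers had 1 lower and 1 higher, the mast cell markers 1 lower and 1 higher, and the progenitor markers 2 lower and 2 higher. With centring on measured probes 2 B cell markers were lower at 72 h.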
